A study of Mus musculus with 8 samples.

Results

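Foxa2 sites that were listed in liver at 21 months and lay far from every site listed at 3 months numbered 8304 of the 12834 sites of the old Foxa2 list, 64.7% of that list, and of 28196 sites in all 4 lists of the study. The sites were chosen by position alone: a site was taken when it overlapped no site of the young Foxa2 list or of either Hdac3 list and when its nearest edge lay more than 10000 bp from every young Foxa2 site. The measured values that selected them are therefore the positions in the 4 lists. They are called distant old-only sites. The study used chromatin immunoprecipitation with sequencing (ChIP-seq), which recovers the DNA bound by a protein, on liver of wild-type C57BL/6 mice, an inbred laboratory strain, at 3 months (young) and 21 months (old). Each protein (Foxa2 or Hdac3) at each age had 2 libraries, with 1 list of sites for both, and whether these came from separate animals is not stated in the labels. Each list gives a position on the mm9 build of the mouse genome, a fold enrichment and a q-value per site. No value therefore has a replicate error, the read depth of each library is unknown, and no test of age was made. Intervals are exact (Clopper-Pearson) 95% binomial intervals that cover counting error only, and neighbouring sites are not independent.

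Foxa2 is a forkhead transcription factor. Proteins of its family are called pioneer factors because they can bind DNA that is still packed in nucleosomes and so let other factors reach it. In liver Foxa2 acts at enhancers of genes for lipid, bile acid and glucose metabolism. Hdac3 is a histone deacetylase that acts in corepressor complexes and removes acetyl groups from histones, and in liver it takes part in the control of lipid metabolism. Sites are named by position, because the gene and promoter tables at hand are on another build (GRCm38). Sequences, neighbouring genes and liver marker genes at the sites were therefore not analysed here.

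The young list and the distance chose these sites, so their absence at 3 months is not a finding. Of the old list, 79.0% overlapped no young Foxa2 site. The 10144 sites without a young partner were made up of the 8304 distant sites, 1734 sites within 10000 bp of a young site (the nearby old-only sites) and 106 sites on an Hdac3 site, 70 of which lay beyond 10000 bp of young sites. The other 2690 old sites overlapped a young one and are called shared. Unlike the distant and nearby sites, shared sites could overlap an Hdac3 site, and 2482 of them overlapped none. Not being listed at 3 months does not show that Foxa2 was absent there, since a site can lie under the limit that set the length of a list.

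The distance limit ran through a continuous range. Just beyond it lay a site on chromosome 11 from 3060463 to 3063362 (10004 bp from a young site, enrichment 1.24), one on chromosome 1 from 9611693 to 9611804 (10010 bp, enrichment 32.1) and one on chromosome 8 from 11011256 to 11011355 (10029 bp, enrichment 38.2). Just inside it lay sites on chromosome 10 from 7571686 to 7571767 (9998 bp, enrichment 13.9), on chromosome 17 from 35023366 to 35023396 (9991 bp, enrichment 62.8) and on chromosome 13 from 116964255 to 116964390 (9985 bp, enrichment 21.0). These sites on both sides of the limit overlapped in enrichment.

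Distant old-only sites lay a median of 114.5 kb from the nearest young Foxa2 site, with quartiles of 43.2 and 295.6 kb. Of them 853 (10.3%) lay between 10000 and 20000 bp away, and 297 (3.58%) lay more than 1000000 bp away, 40 each on chromosomes 6 and 9. The site farthest from the young list lay on chromosome 15 from 22298888 to 22298969, 3.32 Mb from a young site, with an enrichment of 62.1 and a q of 0.113. The histogram of distances shows a single broad hump on a log scale with no gap at the limit.

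**Figure D1:**
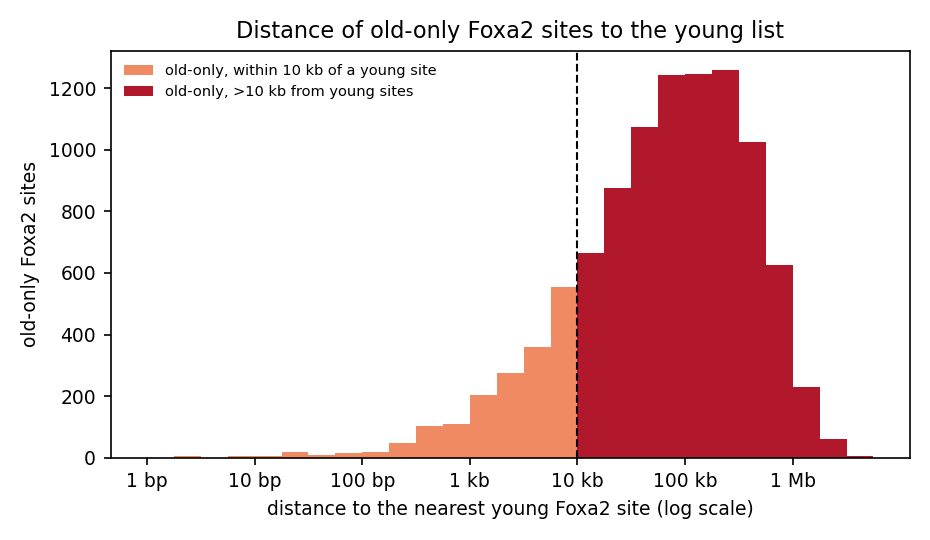
Number of old-only Foxa2 sites (y axis) by distance to the nearest young Foxa2 site (x axis, log scale), coloured by whether they lie within 10 kb of a young site or beyond; the dashed line is the 10 kb limit. The 8304 distant sites form the main part of a single hump that has no gap at the limit.

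Width, q and enrichment differed little along that distance, while the company of other sites differed more. Between 10000 and 20000 bp the median width was 94 bp and the median q 0.0631, and between 500000 and 1000000 bp they were 78 bp and 0.0739. Median enrichment stayed between 20.8 and 22.9 over 7 bands of distance. Another distant old-only site lay within 10000 bp of 30.7% (27.6 to 33.9) of the sites in the nearest band and of 16.5% (12.5 to 21.2) of those beyond 1000000 bp. Across the 8304 sites the rank correlation (Spearman) of distance with width was -0.0771, a description with no test.

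Most distant old-only sites stood in the weaker part of the old list. Their median q was 0.0681 (quartiles 0.0184 and 0.106), against 0.0476 in the nearby old-only sites and 0.000433 in the shared sites. A q of at most 0.01 was given to 1527 of them, 18.4% (95% interval 17.6 to 19.2), against 22.5% (20.5 to 24.5) of nearby old-only and 74.5% (72.8 to 76.1) of shared sites. A q above 0.1, close to the list's limit of 0.12, was given to 2580 of them, 31.1% (30.1 to 32.1). Because the young list sits behind the choice of sites, this order describes the lists and was not tested.

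When the old list was cut into bins of 1000 sites by q, the share of distant old-only sites was 10.1% (8.30 to 12.1) in the first bin, 51.4% (48.3 to 54.5) in the third and 87.4% (85.0 to 89.6) among the last 834 sites. Shared sites took 86.8% of the first bin and 0.719% of the last. The nearby old-only sites behaved otherwise. Their share was 2.6% in the first bin and then stayed between 9.7% and 17.4%.

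**Figure D2:**
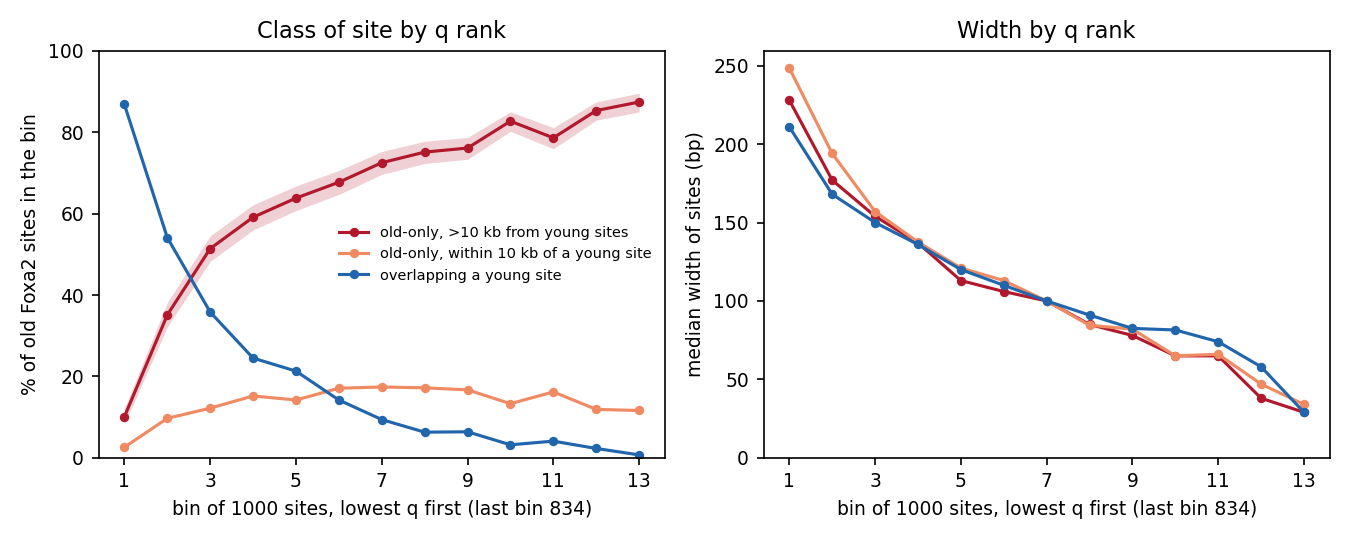
Left, percentage of old Foxa2 sites in each class (y axis) over bins of 1000 sites in order of q (x axis, lowest q first, last bin 834 sites); the band is the exact 95% interval for distant old-only sites. Right, median width in bp of each class in the same bins. Distant old-only sites take 10.1% of the first and 87.4% of the last bin. The widths of the 3 classes differ in the first bins, run close together from the third to the seventh bin, and are largest for shared sites in most later bins.

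Width followed q, and within a range of q the classes differed less than over all sites. Over all sites the distant old-only sites were narrower, with a median of 88 bp (quartiles 57 and 117), than nearby old-only (99 bp) and shared sites (161 bp). Within a bin of q rank the medians for distant, nearby and shared sites came close from the third bin, at 154, 157 and 150 bp, to the seventh, at 100 bp in each class. Among weaker sites the shared ones were often wider, with medians of 65, 65 and 81.5 bp in ranks 9001 to 10000 and of 38, 47 and 58 bp in ranks 11001 to 12000. Shared sites were few there, at 3.2% and 2.3% of these bins. The medians were 78, 82 and 82.5 bp in ranks 8001 to 9000 and 29, 34 and 29 bp in the last bin. In the first bin the medians were 228 bp for distant, 248.5 bp for nearby and 211 bp for shared sites. There the distant sites were wider than the shared ones and still narrower than the nearby ones. Across the distant sites the rank correlation of q with width was -0.874.

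A width of exactly 100 bp was by far the most frequent. It was found for 649 distant old-only sites (7.82%, 95% interval 7.25 to 8.41), whereas 83 were 99 bp and 42 were 101 bp wide, and the next most frequent width, 79 bp, held 90. The same width held 155 nearby old-only sites (8.94%) and 107 shared sites (3.98%). Width also separated the strong from the weak sites: 4950 distant sites (59.6%) were under 100 bp wide, and none of these had a q of at most 0.01, the lowest being 0.0272. All 1527 distant sites with a q of at most 0.01 were among the 3354 that measured 100 bp or more. The labels describe a gel selection of library inserts of about that length, whose part in these widths was not tested.

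Fold enrichment followed q only among the strongest sites. The median enrichment of distant old-only sites was 21.4 (quartiles 12.3 and 37.0), next to 21.2 in nearby old-only and 27.0 in shared sites, and its rank correlation with q was -0.0493. The median was 37.6 for the 33 sites with a q of at most 1e-06, then 29.1, 27.4 and 22.4 in the bands up to 1e-04, 0.001 and 0.01, and 19.4 to 22.6 in the weaker bands. Enrichments above 1000 were given to 27 distant sites, each at most 6 bp wide and none with a q under 0.109. The highest value, 9755, belonged to a site of 4 bp on chromosome 12 from 116978462 to 116978465 with a q of 0.116. The next ones were 3473 on chromosome 8 at 89539620, 3234 on chromosome 13 from 17496243 to 17496244, 3097 on chromosome 7 at 57671383 and 3067 on chromosome 9 at 71011150, with widths of 1 or 2 bp and q-values from 0.111 to 0.119. Among distant old-only sites, an enrichment above 1000 was thus a value over very few bases with a weak q.

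The 905 distant old-only sites under 30 bp wide were divided here by set enrichment limits of 30 and 100. Of these, 509 had an enrichment of at most 30, 296 an enrichment above 100, and 100 a value between. The scatter plot of width against enrichment shows the upper group as a band that falls as width grows and the lower group as level stripes. Many of the values repeat: 3701 distant sites (44.6%) shared their enrichment with at least 9 others, through 167 values, and 156 of these values occurred on 1 chromosome each. The most frequent, 12.264, was given to 100 sites, all on chromosome 9, with widths from 1 to 176 bp, and 11.751 was given to 96 sites, all on chromosome 2. The sources used here do not name the reference of this enrichment, so no amount of bound Foxa2 was read from it.

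**Figure D3:**
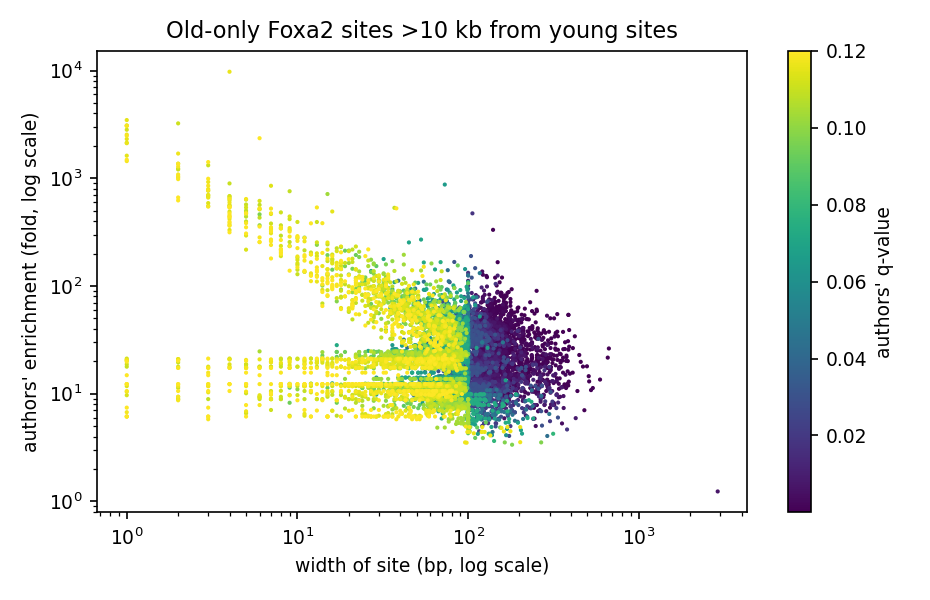
Fold enrichment as deposited (y axis, log scale) against width in bp (x axis, log scale) for the 8304 distant old-only sites, 1 point per site, coloured by q-value. Enrichments above 1000 occur only at widths up to 6 bp, the narrow sites include an upper band and level stripes, and the low q-values (dark) begin at a width of 100 bp.

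The 10 strongest distant old-only sites by q were 180 to 668 bp wide, with enrichments from 13.5 to 93.3, of which 4 lay above the upper quartile of all distant sites. By the lowest q, the first lay on chromosome 8 from 127095687 to 127096354, with a width of 668 bp, an enrichment of 26.3, a q of 1.89e-11 and rank 119 in the old list. It lay 35.7 kb from a young Foxa2 site, 60.9 kb from an old Hdac3 site and 79.5 kb from any other old Foxa2 site, so it stood alone. The second lay on chromosome 13 from 47266123 to 47266447 (325 bp, enrichment 29.1, q 1.07e-09), 12.1 kb from a young site and 494 bp from another distant old-only site. The third, on chromosome 9 from 31812981 to 31813264 (284 bp, enrichment 36.8, q 1.08e-09), lay 149.9 kb from the young list and 8.61 kb from its nearest fellow. The fourth, on chromosome 18 from 5618616 to 5618795, had the highest enrichment of the first 10, 93.3 over 180 bp, and lay 517.5 kb from the nearest young site.

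Ranks 216 to 352 of the old list held the other 6 of these 10 sites. A site on chromosome 1 from 172255188 to 172255696 measured 509 bp with an enrichment of 14.5. One on chromosome 5 from 73249082 to 73249278 measured 197 bp with an enrichment of 43.7 and lay 208.7 kb from the young list. On chromosome 19 there were 2, from 47478507 to 47478732 (enrichment 37.7) and from 38589118 to 38589443 (enrichment 36.7). The first of these lay 11.1 kb from a young Hdac3 site. On chromosome 11 a site of 593 bp from 35765050 to 35765642 (enrichment 13.5) lay 944.2 kb from the nearest young Foxa2 site, the greatest distance among the 10. On chromosome 12 a site from 113347031 to 113347267 (enrichment 58.5) lay 12.4 kb from a young Foxa2 and 12.1 kb from an old Hdac3 site. None of the 10 lay within 10000 bp of an Hdac3 site of either age.

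Only 3 distant old-only sites were wider than 600 bp. Besides the first site on chromosome 8, these were a site of 658 bp on chromosome 10 from 95236207 to 95236864 (enrichment 21.6, q 2.39e-06), 5.69 kb from a young Hdac3 site, and the site of 2900 bp on chromosome 11 from 3060463 to 3063362. The last one had the lowest enrichment of all, 1.24, with a q of 0.00664. It lay 10004 bp from a young Foxa2 site, 10070 bp from a young Hdac3 site and 11905 bp from an old one, but 1812 kb from the nearest other distant old-only site.

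Many distant old-only sites had another one close by. Of them 2162 (26.04%, 95% interval 25.1 to 27.0) lay within 10000 bp of another, and 509 (6.13%) within 1000 bp. Counting any other old Foxa2 site, 27.3% (26.3 to 28.2) had a neighbour within 10000 bp, against 47.6% (45.7 to 49.5) of shared sites and 81.0% (79.0 to 82.8) of nearby old-only sites. The rule itself keeps distant sites away from shared ones, so these shares were not tested against each other. No site of the old list began less than 202 bp after the end of the one before it.

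When sites no more than 10000 bp apart were joined, 6142 distant old-only sites stood alone, 744 runs held 2 sites, 165 held 3, 35 held 4, 3 held 5 and 4 held 6. Sites in runs of 2 had a median width of 96 bp and a median q of 0.0479, those in longer runs 95 bp and 0.0651, and lone sites 85 bp and 0.0699. Strong sites had company somewhat more often. Of the 33 with a q of at most 1e-06, 45.5% (28.1 to 63.6) had another within 10000 bp, and of the 2580 with a q above 0.1, 22.4% (20.8 to 24.1) did.

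The 4 runs of 6 sites lay on chromosomes 1, 3, 6 and 7 and spanned 17.4 to 22.7 kb, and no young Foxa2 site and no Hdac3 site of either age lay inside any of them. The run on chromosome 6 from 121080167 to 121101896 had the lowest q-values. Its sites measured 107, 94, 159, 100, 210 and 154 bp in order along the chromosome, with enrichments of 11.0, 13.2, 11.0, 9.91, 14.0 and 7.27 and q-values of 0.0284, 0.0696, 0.00077, 0.045, 0.00329 and 0.0438. Its strongest site, from 121088482 to 121088640, had rank 2106, and the nearest young Foxa2 site lay 19.3 kb from the run.

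The other 3 runs held no site with a q of at most 0.01. On chromosome 1 from 40276616 to 40294014 the q-values ran from 0.0288 to 0.0928 and the enrichments from 7.31 to 47.0, and the nearest young Foxa2 site was 55.2 kb away. On chromosome 3 from 14854064 to 14874607 the q-values ran from 0.0436 to 0.112, with the nearest young Hdac3 site 1219 kb away. On chromosome 7 from 53987978 to 54010643 the sites were 23 to 100 bp wide with q-values from 0.0461 to 0.112, and the first site of the run lay 12.9 kb from a young Foxa2 site and 11.5 kb from a young Hdac3 site.

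Most distant old-only sites had no listed Hdac3 site within 10000 bp, but the share for arbitrary positions of the genome was not measured. By the rule none of them overlaps an Hdac3 site, but no distance from Hdac3 was asked for. A young Hdac3 site lay within 10000 bp of 666 of them (8.02%, 95% interval 7.44 to 8.63) and an old one within 10000 bp of 200 (2.41%, 2.09 to 2.76), 843 with either and 23 with both. Within 500 bp the numbers were 87 and 15. The Hdac3 lists differed in length, 5828 sites at 3 months and 2930 at 21 months. With the best 2930 young Hdac3 sites by q, 4.06% (3.64 to 4.51) of distant sites had a young Hdac3 site that close, still the higher of the values for the 2 ages, without a test.

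Other old Foxa2 sites without an Hdac3 overlap, 1734 nearby old-only and 2482 shared sites, had Hdac3 nearby more often. A young Hdac3 site lay within 10000 bp of 16.4% (14.7 to 18.2) of nearby old-only sites and of 10.8% (9.57 to 12.04) of shared sites, and an old one near 5.82% (4.77 to 7.03) and 3.91% (3.18 to 4.75). Hdac3 sites on young Foxa2 sites are kept away from distant sites by the rule. With Hdac3 sites that overlap no Foxa2 site, the values for young Hdac3 were 7.72% (7.15 to 8.31) for distant, 13.4% (11.8 to 15.1) for nearby and 9.43% (8.31 to 10.6) for shared sites, and for old Hdac3 2.38%, 4.96% and 3.55%. The order of the classes was the same, and for young Hdac3 the intervals of distant and shared sites just overlapped.

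**Figure D4:**
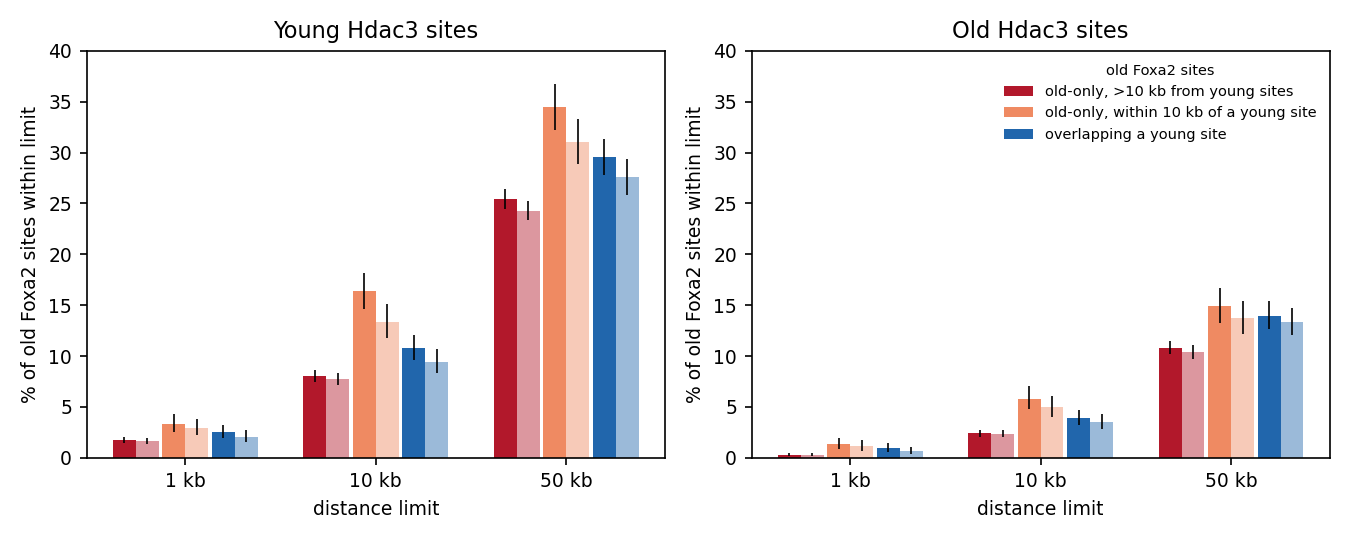
Percentage of old Foxa2 sites with no Hdac3 overlap (y axis) that have a young (left) or old (right) Hdac3 site within 1, 10 or 50 kb (x axis), by class of Foxa2 site; pale bars use only Hdac3 sites that overlap no Foxa2 site, and lines are exact 95% intervals. Distant old-only sites have the lowest bar in each group, 8.02% for young and 2.41% for old Hdac3 within 10 kb.

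Among the distant old-only sites themselves, young Hdac3 was more often close to those nearer to young Foxa2 and to those in runs. A young Hdac3 site lay within 10000 bp of 11.3% (9.21 to 13.6) of the sites 10000 to 20000 bp from a young Foxa2 site. In the bands that follow, up to 50000, 100000, 200000, 500000 and 1000000 bp and beyond, the shares were 10.1%, 6.44%, 8.37%, 7.45%, 5.40% and 5.05% (2.85 to 8.19), so the order was not unbroken. It was close to 12.03% (10.4 to 13.8) of sites in runs of 2 and 11.6% (9.26 to 14.2) in longer runs, against 6.66% (6.05 to 7.31) of lone sites, though sites of a run can share 1 Hdac3 neighbour. For old Hdac3 the values over the bands of distance ran from 1.35% to 3.01% in no order, and they were 2.62%, 2.37% and 2.36% in runs of 2, longer runs and lone sites.

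The pairs that came closest to overlapping involved Foxa2 sites of ranks 4487 to 9294 in the old list. A distant old-only site on chromosome 1 from 138529643 to 138529744 (enrichment 31.3, q 0.0287) lay 6 bp from an old Hdac3 site. On chromosome 17 a site from 73186971 to 73187032 (enrichment 12.4, q 0.0961) lay 6 bp from a young one, and a site from 29557119 to 29557271 (enrichment 7.09, q 0.0134) lay 10 bp from a young one. From the side of Hdac3, 607 young sites (10.4% of their list) and 176 old sites (6.01%) lay within 10000 bp of a distant old-only Foxa2 site. Their median widths were 24 and 17 bp, against 26 and 23 bp in the full Hdac3 lists.

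Distant old-only sites were spread unevenly over the chromosomes. Per Mb between the first and the last listed site, the autosomes held 2.001 (chromosome 14) to 4.87 sites (chromosome 9), with a median of 3.34, and chromosomes 15, 8 and 19 followed with 4.78, 4.73 and 4.65. The X chromosome held 60 of the sites, 0.723% (0.552 to 0.929), or 0.370 per Mb. X was sparse in the old list as a whole, with 0.849% (0.698 to 1.02) of all old Foxa2 sites. It held 0.404% of nearby old-only sites but 1.56% (1.13 to 2.10) of shared sites. Young Foxa2 sites had a narrower range, 1.96 to 3.40 per Mb on autosomes and 1.38 on X. Chromosome 15 had 2.15 distant old-only sites for each young site, chromosome 17 had 0.839 and X had 0.268. Over the 19 autosomes the correlation of both densities was 0.369 (Pearson) and 0.332 (Spearman), a description of 1 list per age. The rule bars sites near young ones, so these ratios and correlations depend in part on the choice of sites.

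The spread between chromosomes was widest among the weakest sites, at 0.271 to 2.55 per Mb for a q above 0.1 against 1.10 to 2.38 for a q of at most 0.05. On chromosomes 2, 7, 8, 9 and 15, picked out after their values were seen, 40.9% to 53.8% of distant old-only sites had a q above 0.1, 1391 of 2848 together (48.8%). On the other 14 autosomes it was 13.5% to 38.7%, 1189 of 5396 together (22.0%), and on X 0 of 60 (interval up to 5.96%). Chromosome 18, at 38.7%, came next to the 5. Sites under 30 bp made up 20.01% (18.6 to 21.5) of the distant sites on those 5 chromosomes and 6.21% (5.58 to 6.89) on the other autosomes. Within the 5 they ran from 175 of 589 sites on chromosome 9 to 56 of 479 on chromosome 15, next to 31 of 274 on chromosome 18. Because narrow sites had a weak q, this share is not separate from the choice of the 5 by q.

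At a q of at most 0.05 the order of the chromosomes was another. Chromosomes 8 and 9 then held 1.55 and 1.47 distant old-only sites per Mb, within the range of the 14 other autosomes, while chromosomes 19 and 15 were the densest with 2.38 and 2.02. The density at a q above 0.1 had a rank correlation of 0.207 with that at a q of at most 0.05 over the 19 autosomes. X remained the sparsest with 0.210 per Mb. The nearby old-only sites showed the same split, with 36.8% to 40.8% above a q of 0.1 on the 5 chromosomes and 9.60% to 34.4% on the others. Shared sites divided in this way only in part: 0.952% to 9.09% of them had a q above 0.1 on the 5 chromosomes and 0% to 5.21% on the others. Chromosomes 7 and 8 had the highest shares of all, 9.09% and 6.67%. Chromosomes 15, 9 and 2, at 0.952%, 2.41% and 2.82%, lay within the range of the other autosomes. The cause of the split was not tested.

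**Figure D5:**
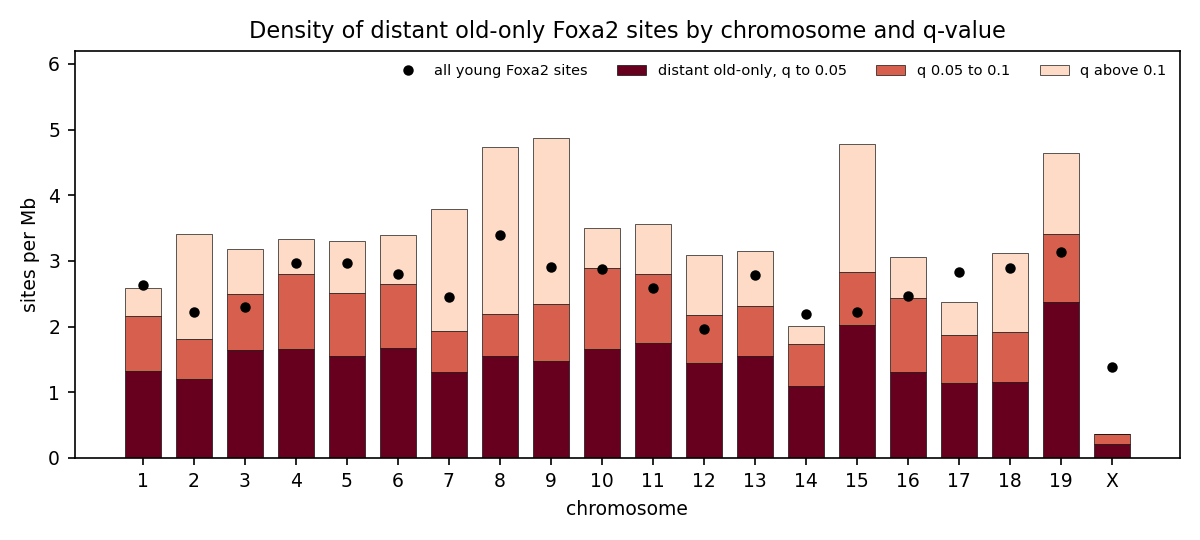
Distant old-only Foxa2 sites per Mb (stacked bars, y axis) on each chromosome (x axis), divided by q-value, with black points for all young Foxa2 sites per Mb. Chromosomes 2, 7, 8, 9 and 15 have the tallest pale segments (q above 0.1), and the dark segments (q to 0.05) of chromosomes 8 and 9 (1.55 and 1.47 per Mb) lie within the range of the other autosomes.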

How the data were processed

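ChIP-seq of Foxa2 and Hdac3 in young and old liver gave 8 libraries, grouped by their titles, and 4 lists of sites. The submitters' processing notes name BWA and the mm9 build. The sources used here do not name the peak caller or its control, nor how libraries were pooled into a list. Per the file headers, the authors deposited a fold enrichment (a ratio) and a q-value per site; the latter reached 0.12 in the Foxa2 lists and 0.2 in the Hdac3 lists.

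The end was counted in a site, and distances run from edge to edge, with overlap at 1 bp or more. Ranks follow q, with ties by enrichment. The members and lists were chosen with earlier results of these data known. Sites named are the 10 with the lowest q, the 5 with the highest enrichment, the 5 widest (the 3 over 600 bp are described), those next to the distance limit, the longest runs (4 tied) and the 3 nearest Hdac3. The farthest site was added after its value was seen. Planned work on motifs, gene starts, gene lists and cell type markers was not run, as no mm9 genome or annotation was used here. A copy of the class rule was tested on simulated sites of the same chromosome, each placed after its young site, with all Hdac3 sites in a common list. It put 200 of 200 sites in the right class, and other layouts were not simulated. On the data, bedtools 2.31.1 found the same 8304 sites. Computations used Python 3.11.15, numpy 2.4.6, scipy 1.17.1, pandas 2.3.3 and, for plots, matplotlib 3.10.9.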

Additional observations from a re-analysis of the deposited data

How the results depend on the processing

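With 1 list per group the spread between libraries is unknown, and depth sets an unknown part of each list's length. No paired analysis was possible because each group had 1 list for both of its libraries, and for the same reason no replicate was left out. The number of distant old-only sites was 8304 and ranged from 5724 to 8934 over 7 other settings: distance limits of 5000, 20000 and 50000 bp, a q of at most 0.1, young sites of q up to 0.05, sites within 1000 bp merged, and the end not counted. At a q of at most 0.05 and 0.01 it was 3640 and 1527, by construction. At a q of at most 0.05 the median width was 123 bp, the median enrichment 22.2 and the median q 0.0129. The share near young Hdac3 was then 8.68%. The share near another distant site was 17.5%, with neighbours of weaker q left out of the count. With neighbours of any q, the bands of q up to 0.05 had shares of 27.7% to 45.5%. Beyond 50000 bp the median width was 86 bp and the median q 0.0692. Within 1000 and 50000 bp, in place of 10000, the shares were 1.72% and 25.4% for young Hdac3, 0.313% and 10.8% for old Hdac3, and 6.13% and 55.2% for another distant site. Chosen after seeing the data were Hdac3 lists of equal length (4.06% for young Hdac3), any old Foxa2 neighbour (27.3%) and Hdac3 sites that overlap no Foxa2 site. Alternatives for motifs and gene starts were not run.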

Other observations

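Sites of the opposite kind, young-only Foxa2 sites that overlapped no Hdac3 site and lay more than 10000 bp from every old Foxa2 site, numbered 3015. Their median width was 20 bp against the 88 bp of distant old-only sites, and 64.1% (95% interval 62.3 to 65.8) were under 30 bp wide, against 10.9% (10.2 to 11.6). Their q-values lay in a narrower range: 2.09% had a q of at most 0.01, against 18.4% of distant old-only sites, but 79.8% had a q of at most 0.05, against 43.8%, and 1.63% a q above 0.1, against 31.1%. The median q was 0.032 against 0.0681, where the whole young and old lists had medians of 0.0283 and 0.044. The X chromosome held 5.41% (4.63 to 6.27) of them, against 0.723% of distant old-only sites and 0.849% of the whole old list. The q-values of the 2 lists come from separate calls and were not compared by a test.

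Hdac3 of both ages lay within 10000 bp of 23 distant old-only sites, and 5 pairs of these were neighbours within 10000 bp of each other. The strongest by q was on chromosome 12 from 35998030 to 35998285 (enrichment 40.5, q 7.11e-07, rank 596), 294 bp from a young and 6140 bp from an old Hdac3 site, with a second one from 35998830 to 35998854. Another, on chromosome 6 from 112194227 to 112194387 (enrichment 31.9, q 1.25e-06), lay 2646127 bp from the nearest young Foxa2 site. A site on chromosome 19 from 5846635 to 5846734 (q 0.0179) lay 102 bp from a young and 1172 bp from an old Hdac3 site. These were chosen after their values were seen.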
